A study of Mus musculus with 6 samples.

Results

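The genes described here are 6 that together mark type 1 conventional dendritic cells (cDC1), namely Clec9a, Xcr1, Flt3, Cadm1, Batf3 and Irf8, out of 34187 genes in the count matrices of CD45+ cells from mouse pancreatic tumors. They were chosen by name after Clec9a had been seen at a lower level in the dendritic cells of IL10/2-Trikine-treated tumors, so their levels in dendritic cells under IL10/2-Trikine are a description and carry no test. Tests cover mono-IL10 against PBS, the genes other than Clec9a in macrophages and lymphocytes, and gene lists other than the cDC1 markers. The PBS mice are the reference of both cytokine groups. The mono-IL10 tests in dendritic cells thus share their PBS values with the choice and are not independent of it. The lists include genes of dendritic cell development and of cDC1 output, and the part of the cDC1 share in them was not tested.

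The tumors grew under the skin of C57BL/6 mice from 250000 cells of 6694c2vTRP1, a mouse pancreatic ductal adenocarcinoma line. From day 8 they were given 2 intraperitoneal doses, every other day, of PBS, of mono-IL10 at 26 μg per mouse, or of IL10/2-Trikine at 30.6 μg per mouse. Mono-IL10 is the IL-10 comparator, and IL10/2-Trikine is an engineered cytokine built to add an IL-2-type STAT5 signal to that of IL-10. A bead selection for CD45 followed on day 14. Each treatment became 1 single-cell 5′ RNA library, in which 1 of 5 hashtag antibodies per mouse tells the mice apart. Every mouse thus carried the same tumor line and had no other treatment, and each group held 5 mice by its hashtags. Because each treatment was 1 library of 1 experiment, treatment and library cannot be told apart, and the p-values below measure the spread among the mice inside a library.

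The cDC1 lineage takes up material from dead cells and presents it on MHC class I to CD8+ T cells, and in tumors it is known for priming antitumor T cells. Its development needs the transcription factors Batf3 and Irf8, and the growth factor Flt3 ligand sustains dendritic cells through the receptor Flt3. Clec9a is the C-type lectin that senses actin exposed by dead cells, Xcr1 is the receptor for Xcl1 released by NK cells and CD8+ T cells, and Cadm1 is an adhesion molecule of cDC1 that binds Crtam on lymphocytes.

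The stretch before the start of each gene is shown because the genes differ in the CpG content of their promoters. RefSeq entries on GRCm38.p6 matched 5 of the 6 genes, all but Cadm1, and the 250 bases upstream of the start were read on the gene's strand. Those of Clec9a, Xcr1 and Batf3 follow, with every CpG in capitals. Clec9a, at chr6:129408612-129408861 on the plus strand, Xcr1, at chr9:123862030-123862279 on the minus strand, and Batf3, at chr1:191098164-191098413 on the plus strand, read 5′ to 3′ as follows.
Clec9a: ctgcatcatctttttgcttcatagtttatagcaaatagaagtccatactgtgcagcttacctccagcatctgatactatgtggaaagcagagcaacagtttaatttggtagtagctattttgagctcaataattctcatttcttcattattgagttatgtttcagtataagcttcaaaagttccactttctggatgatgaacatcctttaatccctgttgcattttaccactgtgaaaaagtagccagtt
Xcr1: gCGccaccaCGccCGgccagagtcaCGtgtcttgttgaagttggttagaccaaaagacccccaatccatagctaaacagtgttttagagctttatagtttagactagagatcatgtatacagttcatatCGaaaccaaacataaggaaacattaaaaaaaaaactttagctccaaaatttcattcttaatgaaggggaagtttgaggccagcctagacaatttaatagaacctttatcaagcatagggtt
Batf3: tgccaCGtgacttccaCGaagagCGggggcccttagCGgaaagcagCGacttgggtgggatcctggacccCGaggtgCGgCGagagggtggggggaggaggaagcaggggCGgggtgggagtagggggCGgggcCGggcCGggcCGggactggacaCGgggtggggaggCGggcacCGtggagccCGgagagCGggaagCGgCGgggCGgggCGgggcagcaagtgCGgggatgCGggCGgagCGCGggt
The Clec9a stretch held 0 CpG, as few as 7.87% of 32851 mouse promoters, whose median was 6. The Xcr1 stretch held 5, and the Batf3 stretch held 27, a number that 92.4% of promoters did not exceed. Flt3 had 13, and the 2 entries of Irf8 had 29 and 8. An AP-1 motif (TGANTCA), an ETS-IRF composite motif (GGAA and GAAA with any 2 bases between them) and a pair of IRF sites (GAAA and GAAA with any 2 bases between them), searched on both strands, occurred in 6.75%, 2.3% and 2.98% of all promoters and in none of these windows, which says only that those letters are not there.

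The 3 libraries held 44412, 30528 and 55504 cell barcodes for PBS, mono-IL10 and IL10/2-Trikine, of which 34518, 24060 and 46104 had at least 1000 genes and at most 10% mitochondrial transcripts. Their median depths were 9474, 11643.5 and 6399 unique molecular identifiers (UMIs, counted transcripts) per droplet. Pairs of libraries shared 408 to 700 barcodes. Droplets were clustered without the 6 genes and named from marker lists that do not hold them. Although CD45+ cells had been isolated, 42969 droplets were tumor epithelial-like. The named cells used here were 1006 dendritic cell-like cells (498, 277 and 231 by library), 17899 macrophage or monocyte-like cells and 2392 T and NK cell-like cells. Dendritic cells in the IL10/2-Trikine library were shallow, with a median of 2985 UMIs against 5998.5 for PBS and 8311 for mono-IL10.

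Within the dendritic cells, 181 cells were cDC1-like by other markers of the lineage (Wdfy4, Itgae, Tlr3, Naaa and others), 531 were cDC2-like and 195 were mature dendritic cell-like. A further 99 cells were led by cell-cycle genes. Their marker scores also named them cDC1, and they were kept apart as cycling dendritic cells, a choice made after their values were seen. They carried cDC2 markers as well. Their cDC1 and cDC2 lists totalled 2487 and 2492 CPM in PBS, 2178 and 1690 CPM in mono-IL10, and 2055 and 2042 CPM in IL10/2-Trikine. Neither Clec9a nor Xcr1 was detected in 62.6% of them. The 10 markers of the cDC1 list totalled 4531, 4712 and 5253 CPM in the cDC1-like cells of the PBS, mono-IL10 and IL10/2-Trikine libraries, against 474, 436 and 431 CPM in macrophages. Clec9a and Xcr1 were the most restricted genes. Levels are given as CPM, the UMIs of a gene per 1000000 UMIs of the same cells, and are compared only between cells, never between genes. Clec9a reached 473 CPM in cDC1-like cells, 162 CPM in cycling dendritic cells, 22.7 CPM in mature dendritic cells and 7.37 CPM in cDC2-like cells. It was 1.46 CPM in macrophages and 0.206 CPM in T and NK cells, where 2 UMIs were counted in 2392 cells. Xcr1 went from 336 CPM in cDC1-like cells and 182 CPM in cycling dendritic cells to 1.60 CPM in cDC2-like cells and 0.419 CPM in macrophages, and was at 0 in T and NK cells, which allows a level of up to 0.308 CPM. Both genes were thus highest in cDC1-like cells and next in cycling dendritic cells, and neither gene had been used in the clustering or in naming the clusters.

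The other 4 genes were shared more widely. Flt3, the receptor for Flt3 ligand, stood at 205 CPM in cDC1-like cells, 338 CPM in mature dendritic cells, 48.4 CPM in cDC2-like cells and 2.50 CPM in macrophages. Cadm1 was 399 CPM in cDC1-like cells, 0.961 CPM in cDC2-like cells and 27.3 CPM in macrophages, but also 159 CPM in tumor epithelial-like droplets and 125 CPM in mast cell or basophil-like cells. Cadm1 thus marked cDC1 among dendritic cells and not among all cells of the tumor. Of its 158196 UMIs, 0.344% came from cDC1-like cells, whereas cDC1-like cells held 24.3% of 2648 Clec9a UMIs and 26.5% of 1729 Xcr1 UMIs. Batf3, the AP-1 family factor of the lineage, was 147 CPM in cDC1-like cells, 289 CPM in mature dendritic cells, 62.2 CPM in cDC2-like cells and 10.3 CPM in macrophages. Irf8, the interferon regulatory factor of the lineage, was 549 CPM in cDC1-like cells, 632 CPM in mature dendritic cells, 486 CPM in T and NK cells and 121 CPM in macrophages. For Batf3, Flt3 and Irf8 the highest of these levels was that of mature dendritic cells, so a value over all dendritic cells mixes both subsets. The T and NK cell level of Irf8 is a mix too. Scaled to equal depth, its mean per cell was 7.93 and 9.14 in NK clusters and 0.645 in regulatory T cells. It was 0.340 in the named T cell cluster, which was led by Cd8b1 and Cd8a. On that scale the mature dendritic sub-cluster had 6.65.

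**Figure D1:**
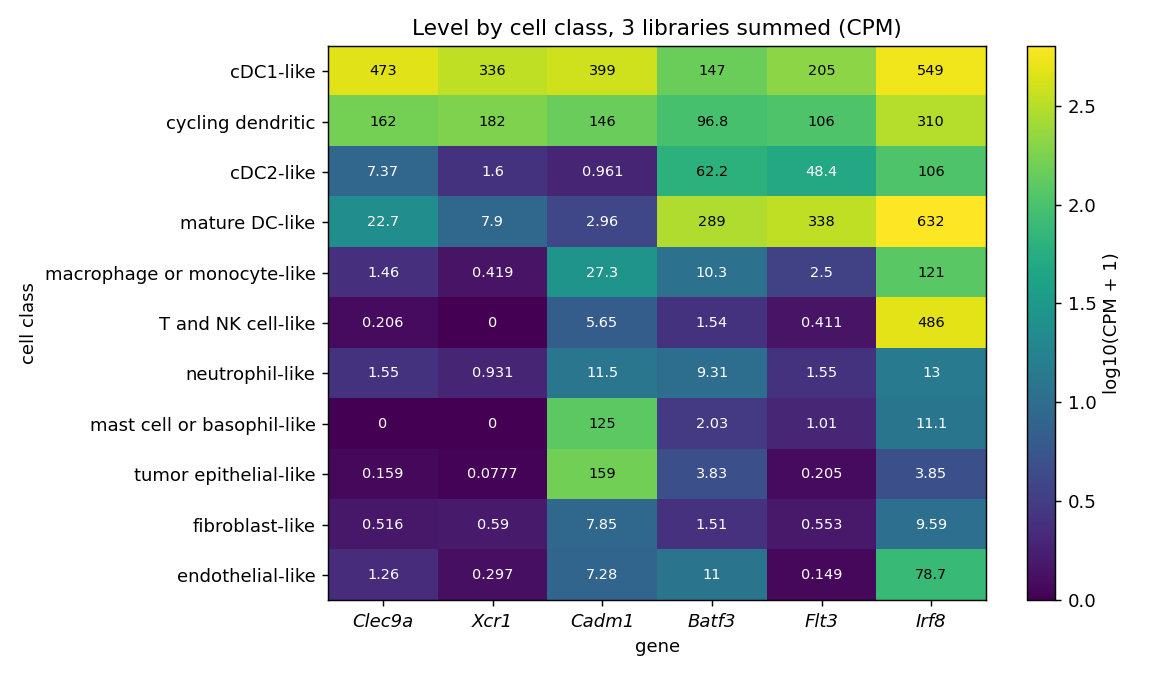
Heat map of the level of each gene (columns) in each cell class (rows), all 3 libraries summed, with colour on a log10(CPM + 1) scale. Clec9a and Xcr1 stand out in cDC1-like and cycling dendritic cells, Cadm1 also in tumor epithelial-like and mast cell-like droplets, and Irf8 across dendritic cells, macrophages and lymphocytes; colours compare classes within a gene.

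Among cDC1-like cells, 94.2% in the PBS library, 86.7% in the mono-IL10 library and 75.0% in the IL10/2-Trikine library had at least 1 Clec9a UMI. Both Clec9a and Xcr1 were detected in 73.1%, 73.3% and 50% of them, in the same order of libraries, and neither in 2.88%, 8.89% and 6.25%. No cDC2-like cell had both genes among 531, and a count of 0 there leaves room for at most 0.565% of cells with UMIs of both, which is no limit on cells that express both. Shares of cells with a UMI depend on depth. After every cell was thinned to 2000 UMIs, Clec9a was found in 63.5%, 53.3% and 65.6% of cDC1-like cells. At equal depth the order of the IL10/2-Trikine library changed from lowest to highest, and the 3 exact binomial 95% intervals, 53.4 to 72.7%, 37.9 to 68.3% and 46.8 to 81.4%, overlapped.

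The first comparison took all dendritic cells of a mouse together and asked how much Clec9a they held by treatment. In the PBS mice Clec9a was 110, 111, 141, 125 and 120 CPM, a mean of 121 ± 12.5 CPM (SD, n = 5). In the mono-IL10 mice it was 95.9, 51.3, 52.1, 129 and 51.1 CPM, a mean of 76.0 ± 35.5 CPM (SD, n = 5). In the IL10/2-Trikine mice it was 67.3, 129, 0, 38.4 and 68.4 CPM, a mean of 60.7 ± 47.4 CPM (SD, n = 5). In each cytokine group 4 mice lay below the lowest PBS mouse and 1 lay inside the PBS range, so the groups overlapped. Each sum rested on 48 to 70 dendritic cells in PBS, 27 to 59 in mono-IL10 and 17 to 33 in IL10/2-Trikine mice. In such sums, fewer cDC1 among dendritic cells and less Clec9a RNA per cDC1 cannot be told apart, and the next comparisons take them separately.

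In edgeR's quasi-likelihood test over all genes, 2.03% of 3939 genes were called between mono-IL10 and PBS dendritic cells at a Benjamini-Hochberg adjusted p under 0.05, and 0 of the 6 cDC1 genes were among them. At an unadjusted p under 0.05 there were 2, Clec9a and Cadm1, against 587 of the 3939 genes (14.9%), and DESeq2 also called 0 of the 6. The log2 difference of Clec9a, mono-IL10 minus PBS, was −0.58 (SE 0.26, unadjusted p = 0.0351, adjusted p = 0.29, edgeR). Over the alternative settings it ran from −0.84 to −0.44 with an adjusted p of 0.0501 to 0.499. For IL10/2-Trikine minus PBS the fitted log2 difference of Clec9a was −0.84 (SE 0.38), or −1.47 without IL10/2-Trikine mouse 2, and it was not tested because it chose the genes. That contrast had 0.0254% of 3939 genes called, which was the single gene Rgs1, a regulator of G protein signalling (log2 difference 0.66, SE 0.12, edgeR adjusted p = 0.0281), named after its value was seen. In it 387 genes had an unadjusted p under 0.05, and DESeq2 called 25.

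The second comparison asked how many of the dendritic cells were cDC1-like. The share per mouse was 19.4, 11.4, 18.2, 12.3 and 18.8% in PBS, 11.9, 3.39, 14.8, 16.1 and 7.41% in mono-IL10, and 5.56, 12.1, 5.88, 3.85 and 15.8% in IL10/2-Trikine. The means were 16.0 ± 3.81%, 10.7 ± 5.29% and 8.64 ± 5.08% (SD, n = 5 each). The groups overlapped. With the cycling cells counted as cDC1-like, the means were 25.6 ± 5.53%, 18.6 ± 7.20% and 22.6 ± 11.4% (SD, n = 5 each), so that IL10/2-Trikine lay above mono-IL10. IL10/2-Trikine mouse 1 then had 38.9%, above every PBS mouse. Mono-IL10 minus PBS was −5.28 percentage points (two-sided exact permutation test, p = 0.119, adjusted p = 0.357 over 3 tests, smallest possible p 0.00794). Over whole libraries, hashtag or not, the share was 20.9% (exact binomial 95% interval 17.4 to 24.7%), 16.2% (12.1 to 21.1%) and 13.9% (9.67 to 19.0%). These intervals cover counting error only.

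Taken as a share of all named immune cells, cDC1-like cells were at 0.651, 0.415, 0.928, 0.532 and 0.616% in PBS mice. They were at 0.362, 0.154, 0.329, 0.358 and 0.162% in mono-IL10 mice and at 0.0506, 0.325, 0.253, 0.183 and 0.336% in IL10/2-Trikine mice. All 5 mice of both cytokine groups lay below the lowest PBS mouse. The denominator of these shares leaves out unnamed clusters that scored highest as immune cells, such as macrophage-scoring clusters of 2228 and 1835 droplets. Another, of 1094 droplets, had 684, 108 and 302 in the PBS, mono-IL10 and IL10/2-Trikine libraries. Shares with these clusters included were not computed. These shares, like those of dendritic cells, rest on few hashtagged cDC1-like cells. There were 12, 8, 12, 8 and 9 in PBS mice, 7, 2, 4, 5 and 2 in mono-IL10 mice, and 1, 4, 1, 1 and 3 in IL10/2-Trikine mice. The mean was 0.628 ± 0.191% in PBS against 0.273 ± 0.106% in mono-IL10 (SD, n = 5 each; two-sided exact permutation test, p = 0.00794, the smallest this design allows, adjusted p = 0.0556 over 7 tests of dendritic subset shares) and 0.230 ± 0.117% in IL10/2-Trikine, which was not tested. The mono-IL10 difference did not pass the adjusted threshold. With the other p-values of this family as they were, even full separation of the mice could not pass it. The cDC2-like share, at 1.91 ± 0.436, 1.7 ± 0.549 and 1.63 ± 1.38%, and the mature dendritic share, at 1.04 ± 0.412, 0.676 ± 0.584 and 0.806 ± 0.640%, gave adjusted p of 0.824 to 0.929 in the same family (exact permutation tests, n = 5 each). The mature dendritic difference, mono-IL10 minus PBS, was −0.368 percentage points (exact permutation test, unadjusted p = 0.270). Without mono-IL10 mouse 2 it was −0.605 percentage points (same test, unadjusted p = 0.0476).

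These per-mouse shares leave out droplets with no hashtag. Among cDC1-like cells, 52.9, 55.6 and 68.8% had none in the PBS, mono-IL10 and IL10/2-Trikine libraries, against 4.12, 2.35 and 8.86% of macrophages. Counted with them, cDC1-like cells were 1.18% (exact binomial 95% interval 0.965 to 1.43%), 0.583% (0.426 to 0.780%) and 0.536% (0.367 to 0.756%) of named immune cells. The PBS interval lay above both others, but these intervals cover counting error inside 1 library per treatment and are no test of treatment.

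Xcr1 gave a second count of the lineage, over the same dendritic cells, in which the cDC1-like sub-cluster plays no part. After thinning to 2000 UMIs, dendritic cells with an Xcr1 UMI were 13.3, 4.29, 12.1, 9.23 and 8.33% in PBS mice, 5.08, 3.39, 7.41, 16.7 and 8.00% in mono-IL10 mice, and 0, 12.5, 6.67, 4 and 6.25% in IL10/2-Trikine mice. The means of 9.46 ± 3.54%, 8.11 ± 5.13% and 5.88 ± 4.55% (SD, n = 5 each) lay closer together than the mice of a group. Mono-IL10 minus PBS was −1.35 percentage points (two-sided exact permutation test, p = 0.627, adjusted p = 0.627 over 3 tests), and turned to 1.67 percentage points where at least 2 Xcr1 UMIs were required. Unthinned means were 16.2, 13.2 and 8.70%. As a background, 0 of 2392 T and NK cells and 2 of 1050 neutrophils had an Xcr1 UMI before thinning.

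**Figure D2:**
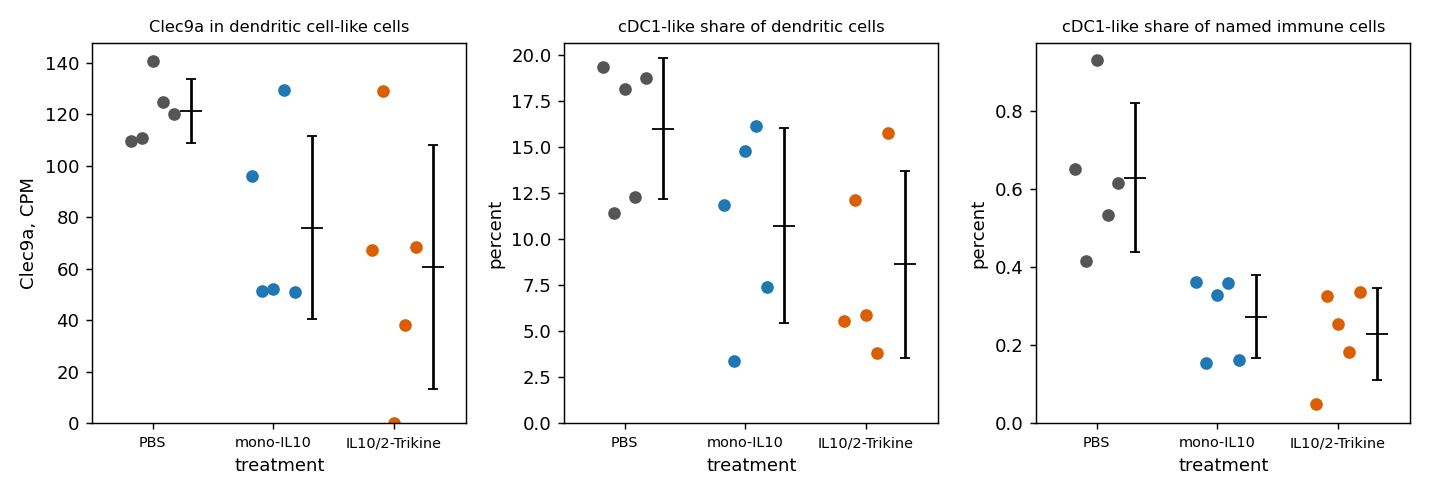
Each point is a mouse and each bar a group mean with its SD (5 mice per group), for Clec9a in dendritic cells (CPM, left), the cDC1-like share of dendritic cells (percent, middle) and the cDC1-like share of named immune cells (percent, right). The cytokine groups overlap PBS in the first and the middle panel, and all their mice lie below the PBS mice in the right panel. Each cytokine-treated mouse had 1 to 7 hashtagged cDC1-like cells.

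The third comparison asked how much Clec9a a cell of the lineage carried once it was recognised by Xcr1. Over whole libraries, Clec9a in Xcr1-positive dendritic cells was 454 CPM in PBS (exact Poisson 95% interval 413 to 498 CPM, 105 cells), 417 CPM in mono-IL10 (361 to 479 CPM, 44 cells) and 436 CPM in IL10/2-Trikine (318 to 583 CPM, 28 cells). The 3 intervals overlapped, and the IL10/2-Trikine interval was wide enough to hold both a lower and a higher level. With at least 2 Xcr1 UMIs required, the levels were 482, 443 and 411 CPM. After Clec9a was thinned to 2000 UMIs per cell, its mean was 0.952, 0.841 and 0.821 UMIs per Xcr1-positive cell. All these levels select cells by Xcr1 UMIs counted before thinning, so the selection was not at equal depth. Thinning left 56, 23 and 18 dendritic cells with an Xcr1 UMI, from 105, 44 and 28. The part of depth in these levels was not tested. In dendritic cells without an Xcr1 UMI, Clec9a was 35.7, 21.4 and 38.9 CPM.

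By mouse, the level could be given only where at least 5 Xcr1-positive cells were present. It was 345, 462, 446, 496 and 473 CPM in the 5 PBS mice, a mean of 444 ± 58.2 CPM (SD), and 426 and 580 CPM in 2 mono-IL10 mice. No IL10/2-Trikine mouse had 5 such cells. The mono-IL10 mean of 503 ± 109 CPM (SD, n = 2) was 59.1 CPM above PBS (two-sided exact permutation test, p = 0.476, adjusted p = 0.627 over 3 tests). With 2 mice against 5 this test cannot go below a p of 0.0952 and therefore cannot pass 0.05. The direction rests on the minimum of cells, since the other 3 mono-IL10 mice, with fewer Xcr1-positive cells, had 387, 303 and 218 CPM. With no minimum the difference from PBS was −61.5 CPM, and with mixed droplets included it was −23.6 CPM.

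In cDC1-like cells, whatever their Xcr1 count, Clec9a was 490 CPM in PBS (443 to 540 CPM), 427 CPM in mono-IL10 (368 to 494 CPM) and 521 CPM in IL10/2-Trikine (396 to 672 CPM). The 3 intervals overlapped. In cycling dendritic cells Clec9a was 185 CPM in PBS (152 to 223 CPM, 110 UMIs), 170 CPM in mono-IL10 (124 to 228 CPM, 45 UMIs) and 48.4 CPM in IL10/2-Trikine (19.5 to 99.8 CPM, 7 UMIs in 29 cells). These intervals cover counting error over few cells of 1 library each. By mouse, with 1 to 7 hashtagged cycling cells each, Clec9a was 37.6 to 196 CPM in PBS, 0 to 278 CPM in mono-IL10 and 0 to 46.0 CPM in IL10/2-Trikine, and the groups overlapped. With the cycling cells counted together with the cDC1-like cells, Clec9a was 362 CPM in PBS (331 to 395 CPM), 329 CPM in mono-IL10 (288 to 375 CPM) and 256 CPM in IL10/2-Trikine (198 to 326 CPM), and the PBS and IL10/2-Trikine intervals lay apart. The order of these levels thus depends on where the cycling cells are placed. The pool cannot be read as the level of cDC1 alone, since the cycling cells carried markers of cDC2 too. Their cDC2 markers were at 2492, 1690 and 2042 CPM in PBS, mono-IL10 and IL10/2-Trikine, beside cDC1 markers at 2487, 2178 and 2055 CPM.

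**Figure D3:**
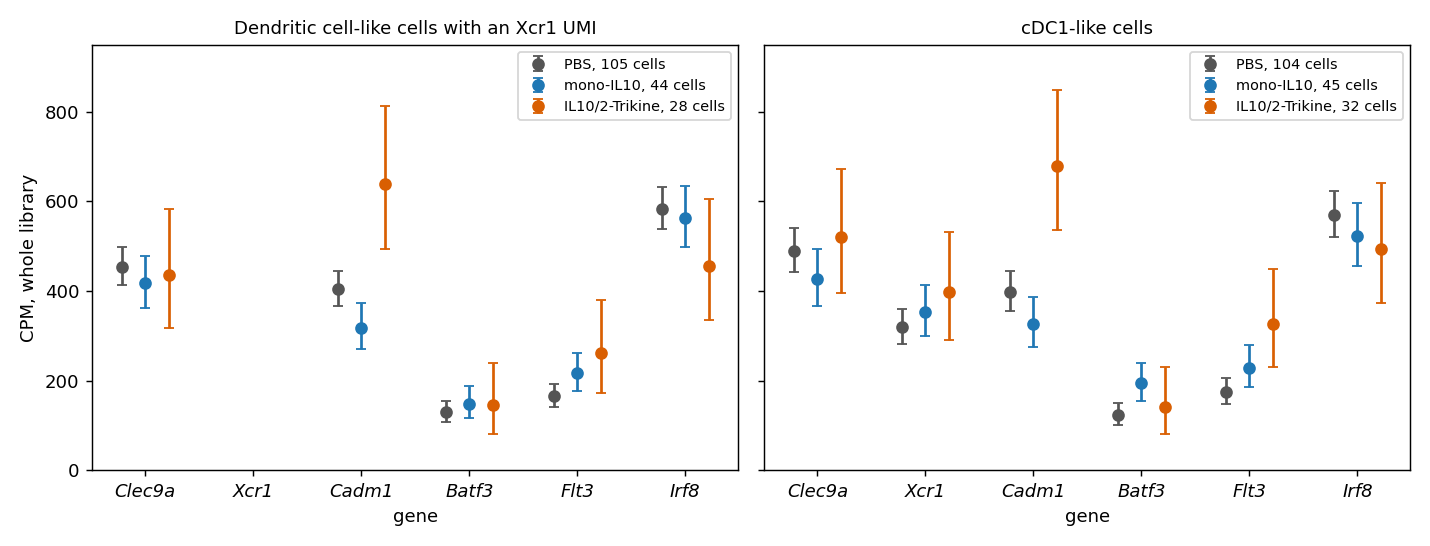
Level in CPM of each gene over whole libraries in Xcr1-positive dendritic cells and in cDC1-like cells, with exact Poisson 95% intervals as bars (counting error only; Xcr1 is not plotted in the cells it selected). The Clec9a intervals of the 3 treatments overlap in both kinds of cell, with 454, 417 and 436 CPM in the first and 490, 427 and 521 CPM in the second.

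The library difference of each gene over all dendritic cells was then divided into a part from the UMI shares of the dendritic subsets and a part from the levels inside them. For Clec9a the difference from PBS was −60.2 CPM in mono-IL10, with −41.8 CPM from shares and −18.4 CPM from levels. In IL10/2-Trikine it was −69.7 CPM, with −48.4 CPM from shares and −21.3 CPM from levels. Shares thus accounted for 69.5% of both differences, and for 92.6 and 111% when only cells with a hashtag were used. In IL10/2-Trikine 22 of 32 cDC1-like cells had no hashtag. The split takes the cycling cells as a subset of their own, a choice made after their values were seen. It was not repeated with them counted as cDC1-like, where Clec9a was lower in IL10/2-Trikine than in PBS. The division between shares and levels rests on that choice. The UMI share of cDC1-like cells went from 24.7% in PBS to 17.9% in mono-IL10 and 14.7% in IL10/2-Trikine. For Xcr1, shares made up 91.4% of −38.2 CPM in mono-IL10 and 81.5% of −41.9 CPM in IL10/2-Trikine. In cells with a hashtag they made up 109% of −30.0 CPM and 165% of −24.5 CPM, so that the level part changed sign in both, to 2.82 and 15.9 CPM.

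For Cadm1 and Flt3 under IL10/2-Trikine the result depended on cells with no hashtag. Cadm1 was −63.8 CPM in mono-IL10, 52.8% of it from shares. In IL10/2-Trikine it was −13.1 CPM over all cells, with −52.4 CPM from shares and 39.3 CPM from levels, but −49.7 CPM in cells with a hashtag, with −42.2 CPM from shares and −7.46 CPM from levels. Its level in cDC1-like cells was 680 CPM under IL10/2-Trikine (536 to 850 CPM) against 398 CPM in PBS (356 to 444 CPM). With a hashtag it was 462 CPM (264 to 750 CPM) against 418 CPM (358 to 486 CPM), and with none 776 against 379 CPM. Flt3 was 21.4 CPM above PBS in mono-IL10, with 30.1 CPM from levels, and 16.3 CPM above it in cells with a hashtag. Under IL10/2-Trikine it was 11.4 CPM above PBS over all cells, with 26.3 CPM from levels, but −13.4 CPM in cells with a hashtag, with −13.5 CPM from shares and 0.11 CPM from levels. In cDC1-like cells Flt3 was 327 CPM under IL10/2-Trikine (230 to 450 CPM) against 175 CPM in PBS (148 to 207 CPM). With a hashtag it was 289 CPM (138 to 531 CPM) against 181 CPM (142 to 227 CPM). For both genes the intervals lay apart over all cDC1-like cells and overlapped in those with a hashtag. Batf3 differed by 14.3 and −14.9 CPM, and Irf8 by −50.2 and −85.9 CPM, of which −54.5 CPM came from levels under IL10/2-Trikine. With 1 library per treatment none of these parts has a replicate check.

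**Figure D4:**
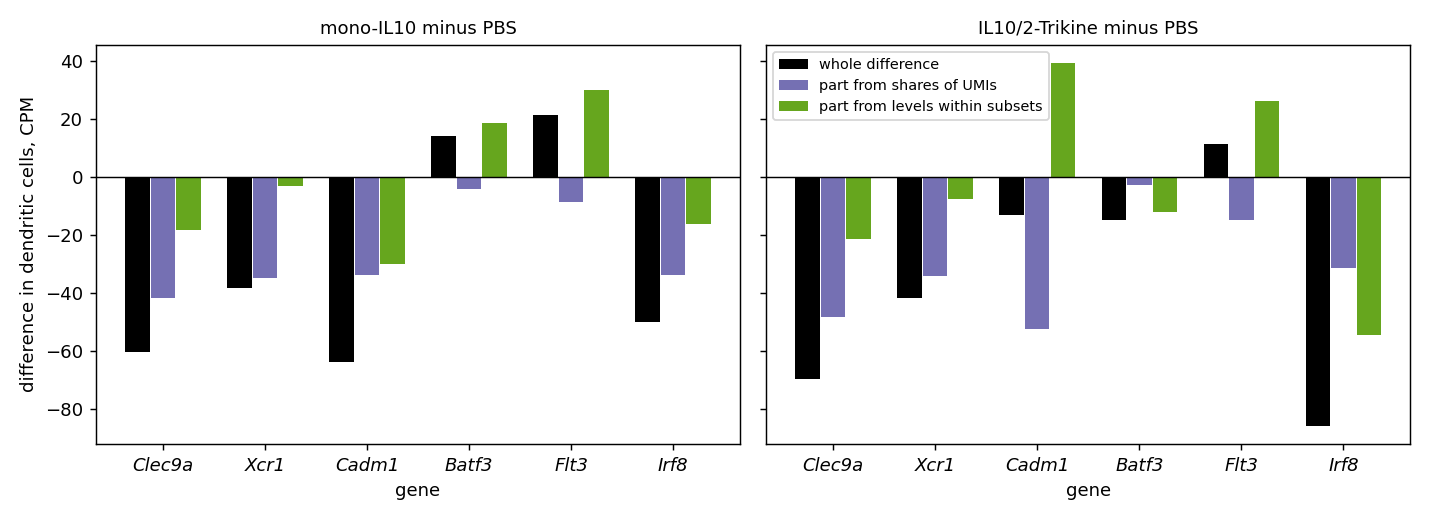
Difference from PBS in CPM of each gene over all dendritic cells of a library (whole difference), and its parts from the UMI shares of the subsets and from the levels inside them, for mono-IL10 and IL10/2-Trikine. Cycling cells are a subset of their own here. The share part is negative for all 6 genes under both treatments, and under IL10/2-Trikine the level parts of Cadm1 (39.3 CPM) and Flt3 (26.3 CPM) include cells with no hashtag, without which they are −7.46 and 0.11 CPM.

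By mouse, Xcr1 over all dendritic cells was 124, 73.9, 86.2, 101 and 61.6 CPM in PBS, 71.9, 39.0, 44.1, 91.3 and 55.4 CPM in mono-IL10, and 26.9, 138, 18.2, 12.8 and 85.5 CPM in IL10/2-Trikine. The mono-IL10 minus PBS log2 difference was −0.49 (SE 0.29, edgeR adjusted p = 0.443). Flt3 was 119, 129, 127, 170 and 123 CPM in PBS and 123, 170, 172, 160 and 141 CPM in mono-IL10, a log2 difference of 0.27 (SE 0.22, edgeR adjusted p = 0.61). Its 5 IL10/2-Trikine mice, at 26.9, 103, 164, 89.6 and 273 CPM, reached below and above all others. Both genes overlapped between all groups.

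Cadm1 gave the largest log2 difference of the 6 genes between mono-IL10 and PBS. Its dendritic level was 93.4, 115, 127, 80.1 and 73.3 CPM in PBS mice against 36.0, 14.4, 76.2, 68.5 and 72.4 CPM in mono-IL10 mice, a log2 difference of −0.95 (SE 0.30, edgeR adjusted p = 0.103). Only mono-IL10 mouse 3 reached into the PBS range. The difference was called in 2 of 20 alternatives, with no filter on low counts (adjusted p = 0.0129) and with mixed droplets included (adjusted p = 0.0267). In IL10/2-Trikine mice Cadm1 was 53.9, 86.2, 18.2, 25.6 and 34.2 CPM, 4 of them below every PBS mouse.

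The transcription factors overlapped between groups. Batf3 was 121, 105, 122, 148 and 144 CPM in PBS, 149, 144, 132, 164 and 59.7 CPM in mono-IL10 (log2 difference 0.14, SE 0.22, edgeR adjusted p = 0.825), and 53.9, 190, 128, 76.8 and 103 CPM in IL10/2-Trikine. Irf8 was 322, 250, 417, 419 and 226 CPM in PBS, 312, 306, 285, 217 and 222 CPM in mono-IL10 (log2 difference −0.18, SE 0.20, edgeR adjusted p = 0.731), and 269, 259, 419, 89.6 and 222 CPM in IL10/2-Trikine. Fitted log2 differences from PBS under IL10/2-Trikine, given without a test, were −0.52 for Xcr1, −0.16 for Flt3, −1.03 for Cadm1, −0.18 for Batf3 and −0.45 for Irf8. Without IL10/2-Trikine mouse 2 they were −1.44 for Xcr1, −1.58 for Cadm1 and −0.61 for Batf3, and without mouse 5 Flt3 was at −0.56. Those of Batf3 and Flt3 changed sign when mixed droplets were included, to 0.19 and 0.26.

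Markers of other cells were measured in the same dendritic sums. The 6 neutrophil markers totalled 129, 38.0 and 430 CPM over the PBS, mono-IL10 and IL10/2-Trikine libraries, up to 1293 CPM in 1 IL10/2-Trikine mouse, with Retnlg at 0 there. The 11 macrophage markers totalled 617, 424 and 545 CPM, and the 6 tumor epithelial markers 34.5, 32.1 and 66 CPM. Their part in the member levels was not tested. Inside cDC1-like cells the 6 T cell markers were 3.66, 0 and 0 CPM. Macrophage markers there totalled 524, 661 and 724 CPM, and neutrophil markers 152, 2.34 and 159 CPM. The cDC2 list totalled 643, 1140 and 971 CPM, and the mature dendritic list 197, 304 and 424 CPM. Their part in the levels of cDC1-like cells was not tested.

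The other genes of the lineage were read from a fixed list of 10, of which 7 passed the filter in dendritic cells. Between mono-IL10 and PBS edgeR and DESeq2 called 0 of the 7, with 1 at an unadjusted p under 0.05, and their median log2 difference was −0.15 against −0.00087 over all genes. Under IL10/2-Trikine against PBS the list is given without a test, since its genes follow the same cells as Clec9a, and the median was −0.92 against 0.0032 over all genes. Examples were Naaa, a lysosomal amidase (−1.12), Ppt1, a lysosomal thioesterase (−1.21), Rab7b (−1.09) and Ifi205 (−0.92). Naaa was 344 to 483 CPM in PBS mice and 108 to 293 CPM in IL10/2-Trikine mice. How many of all genes separate in this way was not counted, so these values are a description only. The list also defined the cDC1-like cells, so these medians carry the share of such cells with them.

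In the remaining lists 1 gene was called in dendritic cells between mono-IL10 and PBS. Ccl17, a chemokine for Ccr4-bearing T cells and 1 of 5 cDC2 genes past the filter, fell by 1.07 on the log2 scale (SE 0.18, edgeR adjusted p = 0.0032), from 2027 to 2308 CPM in PBS mice to 582 to 1416 CPM in mono-IL10 mice. No gene passed among 8 mature dendritic cell genes, 12 transcription factors of dendritic cell development, 9 cross-presentation genes, 8 genes of costimulation and output, 7 growth factor receptors and 2 ligands or partners. Of the 50 genes of these lists past the filter, leaving out Wdfy4, which is also in the cDC1 list, 13 had an unadjusted p under 0.05 in that contrast, against 14.9% of all genes, and DESeq2 also called Ccl17 alone. Under IL10/2-Trikine edgeR called none of these 50 genes against PBS or against mono-IL10, where 1.02% of all genes were called. Of the same 50 genes, 8 and 6 had an unadjusted p under 0.05, against 9.82% and 11.96% of all genes, and DESeq2 called 1, Ccl17, against PBS and 0 against mono-IL10.

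In macrophages the members with a clear level were Cadm1 and Irf8, and 3 of the 5 members past the filter were called between mono-IL10 and PBS, where 23.5% of 12223 genes were. Cadm1 fell in mono-IL10. It was 26.1, 68.6, 24.9, 45.5 and 26.3 CPM in PBS mice and 9.54, 11.9, 12, 17.0 and 9.65 CPM in mono-IL10 mice, with no overlap. The log2 difference was −1.60 (SE 0.27, edgeR adjusted p = 0.000223), and it was called in all 19 alternatives. Under IL10/2-Trikine, at 32.2, 23.9, 10.5, 20 and 27.8 CPM, the log2 difference from PBS was −0.59 (SE 0.29, edgeR adjusted p = 0.186), with 16.9% of genes called. Against mono-IL10 it was higher by 1.01 (SE 0.32, edgeR adjusted p = 0.0497), where 10.2% of genes were called. That last call was lost with DESeq2 (adjusted p = 0.0859) and without any 1 of 9 mice, namely PBS mouse 4, mono-IL10 mice 1, 2, 3 and 5, and IL10/2-Trikine mice 1, 2, 4 and 5 (adjusted p up to 0.229). Tumor epithelial cells carry Cadm1 too, and their 6 markers in macrophages totalled 24.9 to 68.8 CPM in PBS mice, 31.7 to 71.6 CPM in mono-IL10 mice and 67.0 to 78.5 CPM in IL10/2-Trikine mice, with all 6 markers detected. Their part in the Cadm1 difference was not tested. The macrophage sums also join clusters that differ in Cadm1. Scaled to equal depth, its mean per cell was 0.657 in a Cx3cr1-led cluster and 0.0089 in a cluster with Ccr2 among its leading genes. An unnamed cluster of 2228 droplets that scored highest as macrophages had 0.707 and was left out of the macrophage sums. The part of the cluster mix in the Cadm1 difference was not tested either.

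Irf8 rose in mono-IL10 macrophages. It was 118, 111, 111, 111 and 112 CPM in PBS mice and 147, 130, 108, 144 and 130 CPM in mono-IL10 mice, a log2 difference of 0.34 (SE 0.072, edgeR adjusted p = 0.00177), called in all 19 alternatives. In mono-IL10, 4 mice lay above every PBS mouse. The part of the macrophage cluster mix in this difference was not tested. Under IL10/2-Trikine it was 114, 114, 124, 139 and 122 CPM, 0.15 above PBS on the log2 scale (SE 0.077, edgeR adjusted p = 0.218). Flt3 in macrophages was low, at 2.57, 1.43, 1.92, 2.18 and 1.47 CPM in PBS and 2.75, 3.79, 3.29, 2.84 and 3.04 CPM in mono-IL10 mice, a rise of 0.81 (SE 0.26, edgeR adjusted p = 0.0306). That call was lost without PBS mouse 2, 3 or 5 or mono-IL10 mouse 2 or 3 (adjusted p up to 0.0779). In IL10/2-Trikine mice it was 3.27, 1.84, 4.69, 0 and 2.24 CPM (log2 difference from PBS 0.39, edgeR adjusted p = 0.49).

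Batf3 in macrophages stayed between 7.62 and 19.9 CPM in the 15 mice and was called in no contrast. Its log2 difference was −0.30 for mono-IL10 minus PBS (edgeR adjusted p = 0.135), 0.13 for IL10/2-Trikine minus PBS (adjusted p = 0.661) and 0.42 for IL10/2-Trikine minus mono-IL10 (adjusted p = 0.115). Clec9a was 1.33 to 2.72 CPM in PBS mice and 0.146 to 2.06 CPM in mono-IL10 mice, a log2 difference of −0.82 (SE 0.40, edgeR adjusted p = 0.149), which was called only without mono-IL10 mouse 1 (−1.56, adjusted p = 0.00866). In IL10/2-Trikine mice it was 0.612 to 1.78 CPM. Xcr1, at 0 to 1.09 CPM, did not pass the filter. Both genes in macrophages were at levels that 0.721 and 0.190% of cells with a UMI gave.

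**Figure D5:**
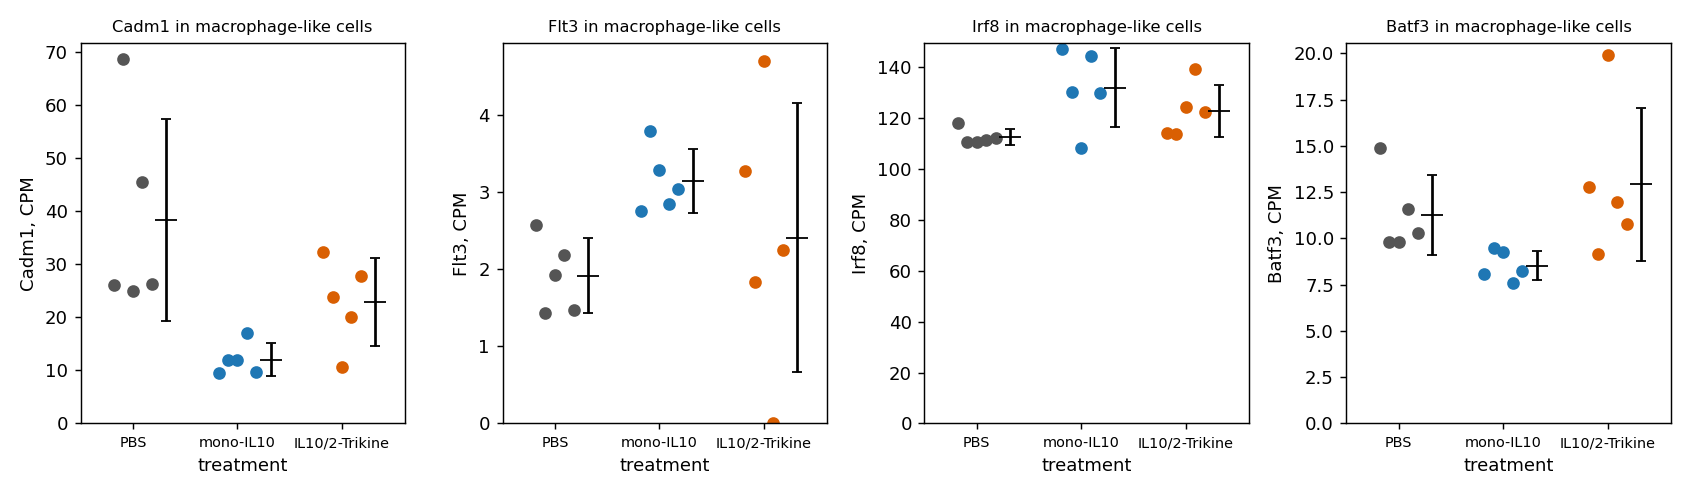
Level in CPM of Cadm1, Flt3, Irf8 and Batf3 in macrophages, each point a mouse and each bar the group mean with its SD (5 mice per group). Cadm1 lies between 9.54 and 17.0 CPM in mono-IL10 mice, below every PBS mouse, and Irf8 reaches 147 CPM in mono-IL10 against at most 118 CPM in PBS.

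In the contrasts with PBS, the cDC2 list had the largest share of called genes among the fixed lists in macrophages. These sums leave out unnamed clusters that scored highest as macrophages and had genes of this list among their leading genes. They were clusters of 1835 droplets (Mgl2, Ccl17), 1330 droplets (Mgl2) and 1127 droplets (Clec10a), so the values describe the named macrophages only. Of 7 cDC2 genes past the filter, 5 fell and 0 rose between mono-IL10 and PBS, where 11.3% of all genes fell and 12.2% rose, with Ccl17 at −2.05, the lectins Mgl2 at −1.75, Cd209a at −1.56 and Clec10a at −0.97 (edgeR adjusted p of 2.28e-06 to 0.0288). Under IL10/2-Trikine, where 8.45% of all genes fell and 8.43% rose against PBS, 4 fell, which were Cd209a at −2.38, Ccl17 at −1.97, Mgl2 at −1.22 and Clec10a at −0.44 (edgeR adjusted p of 0.000416 to 0.0470). The median log2 difference of the list was −0.97 and −0.49, against −0.0039 and 0.0056 over all genes. Mgl2 was 152 to 217 CPM in PBS mice, 34.7 to 84.1 CPM in mono-IL10 mice and 59.6 to 121 CPM in IL10/2-Trikine mice.

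Of 13 transcription factors of dendritic cell development, 3 rose and 2 fell in mono-IL10 macrophages, where 12.2% of all genes rose and 11.3% fell. The repressors Nfil3 and Bcl6 rose by 0.72 and 0.70 and Runx3 by 0.58, while Cbfa2t3 and Irf4 were at −0.88 and −0.64 (edgeR adjusted p of 8.42e-07 to 0.0138). Under IL10/2-Trikine, with 8.43% of all genes higher and 8.45% lower, 3 rose, namely Nfil3 (0.48), Klf4 (0.35) and Bcl6 (0.34), and Relb (−0.34) and Zeb2 (−0.33) fell (edgeR adjusted p of 0.00617 to 0.0263). Of the 8 other cDC1 genes past the filter, Ppt1 rose and Wdfy4 and Rab7b fell in mono-IL10, and Ppt1 rose and Rab7b fell under IL10/2-Trikine, with log2 differences of −0.40 to 0.34, against the same background shares. The lineage list as a whole had a median of −0.03 and 0.02 in macrophages.

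In T and NK cells only Irf8, which lymphocytes also use, passed the filter. It was 263, 671, 381, 265 and 432 CPM in PBS, 362, 387, 451, 373 and 467 CPM in mono-IL10, and 441, 613, 643, 656 and 633 CPM in IL10/2-Trikine mice. PBS mouse 2 lay above every IL10/2-Trikine mouse, and the groups overlapped. The log2 difference was 0.09 for mono-IL10 (edgeR adjusted p = 0.87, 4.5% of 6050 genes called), 0.59 for IL10/2-Trikine against PBS (SE 0.19, adjusted p = 0.0611, 8.45% called) and 0.49 for IL10/2-Trikine against mono-IL10 (SE 0.19, adjusted p = 0.0853, 13.3% called). The difference from PBS was called in 3 of 20 alternatives, with no filter, without PBS mouse 2 and without IL10/2-Trikine mouse 1, and fell to −0.05 in cells with at least 2000 genes. The difference from mono-IL10 was called under the same 3 alternatives (edgeR adjusted p of 0.00455 to 0.0436) and was −0.32 in cells with at least 2000 genes. NK cells made up 233 of 542, 351 of 993 and 736 of 857 of these cells in the 3 libraries, so that the sums differ in their mix of lymphocytes. Irf8 was higher per cell in NK clusters than in the named T cell and regulatory T cell clusters, as given above. The part of this mix in the Irf8 differences was not tested. The sums leave out unnamed clusters of 399 and 397 droplets that scored highest as T cells, with Irf8 at 1.23 and 0.995 per cell. Also left out were clusters of 1262, 1087, 1376 and 1567 droplets, led by lymphocyte genes but scored highest as macrophages. The values thus describe the named lymphocytes only.

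Among the ligands and partners of the members in T and NK cells, 4 of 6 passed the filter. Ccl5, a chemokine that attracts cDC1 to tumors, rose in mono-IL10 by 1.45 (SE 0.19, edgeR adjusted p = 8.13e-05) and fell under IL10/2-Trikine by 1.05 (SE 0.19, edgeR adjusted p = 0.00133). It was 1534 to 2877 CPM in PBS, 4519 to 6873 CPM in mono-IL10 and 639 to 1870 CPM in IL10/2-Trikine mice. The 2 cytokine groups thus lay on opposite sides of PBS, apart by 2.50 (SE 0.20, edgeR adjusted p = 2.29e-08). The only named T cell cluster apart from regulatory T cells had Cd8b1, Cd8a and Ccl5 among its leading genes. It made up 33.8, 55.3 and 4.2% of the cells summed in the PBS, mono-IL10 and IL10/2-Trikine libraries, the same order as Ccl5. Its part in the Ccl5 differences was not tested, and unnamed T cell clusters were left out of the sums. Ccl4 rose in both, by 1.25 and 1.0 (edgeR adjusted p = 0.0141 and 0.0354). Xcl1, the ligand of Xcr1, was 419 to 1459 CPM in PBS, 674 to 1207 CPM in mono-IL10 and 535 to 1222 CPM in IL10/2-Trikine mice and was not called. Flt3l, the ligand of Flt3, was 12.8 to 22.3, 16.5 to 56.9 and 9.65 to 30.1 CPM and was not called.

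Across 27 class-by-treatment sums, 3 of them from fewer than 50 cells, the genes whose log2(CPM + 1) followed Clec9a most closely among 5920 were Xcr1 (Pearson r = 0.958), Hepacam2 (0.863), Tspan33 (0.835), Bcl2l14 (0.825) and Gm9530 (0.822). These points share libraries and depth, and the values are a description. Batf3 ranked 8 (r = 0.794), Flt3 11 (0.783), Irf8 332 (0.526) and Cadm1 2834 (−0.035). Within the list of 6, Xcr1 therefore went with Clec9a across cell classes and Cadm1 did not.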

How the data were processed

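The deposited files were raw UMI counts per gene and droplet (10x 5′ libraries) that the authors made with Cell Ranger 9.0.1 on GRCm39, per the labels, with hashtag counts in the same matrices and a table of annotated T and NK cells. The submitters' processing notes also name Seurat 5.1.0 and DESeq2 1.46.0. The 6 genes, the fixed lists and the tests were chosen with earlier results of these data known.

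Droplets with at least 1000 genes and at most 10% mitochondrial UMIs, the filter of the study, were assigned to mice from their hashtag counts (Seurat 5.3.0, HTODemux, quantile 0.99), and droplets with more than 1 hashtag were left out as doublets. No other doublet caller was run, and doublets within a mouse remain. Droplets with no hashtag enter library values only. Remaining droplets were clustered (scikit-learn 1.9.0, k-means, 60 clusters on 40 components of 2000 variable genes), and the dendritic clusters were clustered again (12 sub-clusters, 20 components of 1000 genes), always without the 6 genes. Clusters were named from fixed markers, with score thresholds set after the clusters were inspected, and named "like" those cells. A cycling sub-cluster that the markers also named cDC1 was kept apart from the cDC1-like cells, a choice made after its values were seen. Sub-clusters with genes of other lineages were left out as mixed (43.4, 41.3 and 47.0% of droplets of the dendritic clusters in the PBS, mono-IL10 and IL10/2-Trikine libraries). Deposited T and NK cell annotations were used only as an alternative, where 64.9 to 89.8% of those cells fell in the T and NK clusters.

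Counts were summed per mouse with at least 10 cells of a class and tested with edgeR 4.0.16 (quasi-likelihood, TMM, filterByExpr, all 15 mice in 1 fit, Benjamini-Hochberg adjusted p under 0.05). The study summed counts and used DESeq2, which was an alternative here (version 1.42.0, R 4.3.3). Log2 differences are edgeR's, and each SE was derived from the log2 difference and the F statistic of its edgeR test. Shares and levels per mouse were tested by exact two-sided permutation of the mice (SciPy 1.17.1). Intervals are exact Poisson or exact binomial at 95%, and the limit of a count of 0 is 3 counts. Thinned values use 2000 UMIs per cell and leave out shallower cells. Depth was 515236552, 458860129 and 364814102 gene UMIs per library.

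The text names the 6 genes always and, from each fixed list, at most 4 called genes by the size of their log2 difference, or else the highest ones. Where 5 genes of a list were called, the fifth, if named at all, was named after its value was seen. The lists were other cDC1 genes, cDC2 genes, mature dendritic cell genes, transcription factors of dendritic cell development, cross-presentation, costimulation and cDC1 output, growth factor receptors, and ligands and partners. Alternatives were DESeq2, RLE scaling, no filter, at least 2000 genes per cell, other clusterings, other denominators and each mouse left out. Added after seeing the data were mixed droplets included, annotated lymphocytes, cycling cells counted as cDC1-like or left out, and no minimum of Xcr1-positive cells. The test was checked on simulated data. A further treatment in the annotation table belongs to no sample used here and was not used here.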

Additional observations from a re-analysis of the deposited data

Results flagged for a closer look

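Of 43 groups of 5 mice checked, 3 had a mouse far from the other 4, and chance alone flags about 1 in 20 such groups. Flt3 in dendritic cells was 170 CPM in PBS mouse 4, against 119 to 129 CPM in the other PBS mice. Irf8 in macrophages was 118 CPM in PBS mouse 1, against 111 to 112 CPM in the others. Irf8 in T and NK cells was 441 CPM in IL10/2-Trikine mouse 1, against 613 to 656 CPM in the others, and without this mouse the difference from PBS passed the threshold.

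Clec9a was also counted in clusters that were given no name and that no comparison used. Over these 21 clusters it was 2.53 CPM (533 UMIs), and in 19 of them it was above its level of 0.206 CPM in T and NK cells. The 2 with the highest level, described here after their values were seen, held 186 of the 533 UMIs, and the other 19 had 0 to 7.10 CPM. A cluster of 390 droplets led by both plasmacytoid dendritic cell genes (Siglech, Ly6d, Cox6a2) and B cell genes (Cd79a, Ms4a1, Ighm) had 20.7 CPM of Clec9a and 0 Xcr1 UMIs. By library the Clec9a level there was 24.6, 16.3 and 21.5 CPM for PBS, mono-IL10 and IL10/2-Trikine, with Poisson 95% intervals of 16.4 to 35.6, 9.82 to 25.5 and 11.8 to 36.1 CPM, which overlapped. A cluster of 1094 droplets led by Mmp12, Lpl and Dcstamp had 18.3 CPM of Clec9a and 3 Xcr1 UMIs in all. Its level was 19.4 CPM in PBS (684 droplets), 23.0 CPM in mono-IL10 (108 droplets) and 11.4 CPM in IL10/2-Trikine (302 droplets).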

How the results depend on the processing

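Counts of called genes moved most in dendritic cells. IL10/2-Trikine minus PBS had 1, against 25 with DESeq2, 3 with RLE scaling, 127 without a filter, 91 with mixed droplets and 0 to 6 without 1 mouse. IL10/2-Trikine minus mono-IL10 had 40, against 96, 26, 237, 109 and 18 to 71 in the same order. Mono-IL10 minus PBS had 80, against 178 without a filter, 258 with mixed droplets and 22 (without PBS mouse 3) to 95 without 1 mouse. In macrophages, 2064 for IL10/2-Trikine minus PBS became 1093 in cells with at least 2000 genes, and 1244 for IL10/2-Trikine minus mono-IL10 became 751 (without IL10/2-Trikine mouse 1) to 1303. In lymphocytes 272, 511 and 803 became 486, 768 and 1325 without a filter and 118, 21 and 261 with at least 2000 genes. Annotated cells gave 51 for mono-IL10 minus PBS and 406 for IL10/2-Trikine minus mono-IL10, and leaving out a mouse gave 138 (without PBS mouse 4) to 328 for mono-IL10 minus PBS. The causes were not tested.

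The mono-IL10 minus PBS difference in the cDC1-like share (−5.28) had an unadjusted exact p under 0.05 with 8 sub-clusters (−6.03), among named immune cells (−0.355, adjusted p = 0.0556), with at least 2000 genes (−10.3) and with mixed droplets (−7.39), and was −6.64 to −3.45 without 1 mouse. With at least 2000 genes it was −23.5 for IL10/2-Trikine minus PBS and −13.2 for IL10/2-Trikine minus mono-IL10, but each IL10/2-Trikine mouse then had 0 to 4 dendritic cells, too few to give a share. IL10/2-Trikine minus mono-IL10 reversed to 3.96 with cycling cells counted as cDC1-like. For mono-IL10 minus PBS the Xcr1-positive share reversed to 1.67 with at least 2 Xcr1 UMIs, and the Clec9a level in Xcr1-positive cells (59.1) to −23.6 with mixed droplets and −61.5 with no minimum of cells. Irf8 in lymphocytes ranged from −0.041 (without PBS mouse 4) to 0.365 without 1 mouse for mono-IL10 minus PBS, and with at least 2000 genes reversed to −0.055 and −0.32 for IL10/2-Trikine against PBS and mono-IL10. Of 693 alternative values for the members, 21 had another sign, in 8 results with a log2 difference of at most 0.59.

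Depth limits the IL10/2-Trikine values, with 32 cDC1-like cells, of which 22 had no hashtag and entered library values only. No IL10/2-Trikine dendritic sum was left with at least 2000 genes per cell, and mean thinned UMIs gave no comparison because 1 mono-IL10 mouse remained. No paired analysis was possible because hashtag numbers only name the mice of a library and the labels give the groups no shared numbers.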

Other observations

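Droplets left out of the dendritic cells as mixed held 21.0% of all Clec9a UMIs and 33.0% of all Xcr1 UMIs. Most Clec9a of these came from a sub-cluster of 101 droplets that carried cDC1 genes and macrophage genes together. Its Clec9a level was 282, 263 and 215 CPM and its Xcr1 level 310, 318 and 258 CPM in the PBS, mono-IL10 and IL10/2-Trikine libraries. It made up 6.82, 4.87 and 4.13% of droplets of the dendritic clusters, the same order as the cDC1-like share. Over all Xcr1-positive droplets of the dendritic clusters, mixed or not, Clec9a was 352, 324 and 310 CPM.

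In macrophages edgeR called 23.5, 16.9 and 10.2% of all genes in mono-IL10 minus PBS, IL10/2-Trikine minus PBS and IL10/2-Trikine minus mono-IL10, the shares against which the remaining lists are to be read. Of 9 costimulation and output genes, Tnfsf9, the 4-1BB ligand, rose by 0.97 and Cd274, which encodes PD-L1, by 0.30 in mono-IL10 against PBS, and Il15 was at −0.99. Under IL10/2-Trikine, Il15 (−0.87), Cd80 (−0.41) and Cd274 (−0.35) fell, and against mono-IL10 Tnfsf9 was lower (−1.19) as was Cd274 (−0.65, adjusted p = 0.000537). Of 8 growth factor receptors, Kit (0.69), Csf2rb2 (0.53) and Csf2rb (0.35) rose and Csf2ra (−0.23) fell in mono-IL10, while Csf2ra (−0.40) and Il10ra (−0.26), the IL-10 receptor chain, fell under IL10/2-Trikine. Of 11 cross-presentation genes, Tapbp rose (0.28) and Wdfy4 fell (−0.30) in mono-IL10, and Tapbp rose under IL10/2-Trikine (0.33). Mature dendritic cell genes had 0 of 8 called in mono-IL10 by edgeR or DESeq2, with 2 at an unadjusted p under 0.05, and Socs2 (0.46) under IL10/2-Trikine, and ligands had Csf2 (−1.75) in mono-IL10. Between the 2 cytokines, macrophages of IL10/2-Trikine mice had less Zeb2 (−0.53), Relb (−0.45), Runx3 (−0.37), Bcl6 (−0.36), Id2 (−0.30), Csf2rb (−0.49), Csf2rb2 (−0.33) and Il10ra (−0.33) and more Clec10a (0.53) and Crtam (0.68).

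In T and NK cells 40 list places passed the filter, 2 each in the other cDC1, cDC2 and mature lists. In the same order of contrasts 3, 7 and 9 of the 40 were called, against 4.5, 8.45 and 13.3% of all genes. Cd80 fell in both cytokine groups (−1.13 and −1.40), and under IL10/2-Trikine B2m (−0.41), Nlrc5 (−1.13) and Ccr7 (−1.73) fell and Il2rb rose (0.54) against PBS. Il2rb, the IL-2 receptor beta chain, was also higher than in mono-IL10 (0.47, edgeR adjusted p = 0.00529), while the immunoproteasome genes Psmb8 (−0.46) and Psmb9 (−0.47), Cd7 (−1.19), B2m (−0.45) and Nlrc5 (−1.09) were lower there and Tapbp (0.46) and Klf4 (1.15) higher. NK cells made up 43.0, 35.3 and 85.9% of these cells in the PBS, mono-IL10 and IL10/2-Trikine libraries, and their part in these values was not tested.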
